A study of Homo sapiens with 12 samples.

Results

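The genes described here are 10 members of the activin and TGF-beta pathway, picked by symbol out of the 60675 genes counted in HCC1187 and MDA-MB-468. They are the activin subunits INHBA and INHBB, the activin antagonist FST, the ligands TGFB1 and TGFB2, the receptor TGFBR2, the transducer SMAD3, the feedback genes SMAD7 and SKIL, and the secreted matrix protein gene TGFBI. Both lines are human triple-negative breast cancer lines that the labels call basal-like. Each was transfected for 48 h with sh-SOX9-AS1, a short hairpin against the long noncoding RNA SOX9-AS1, or with sh-CONTROL, whose treatment is given as sh-LacZ. There were 3 libraries in each of the 4 groups: HCC1187 sh-SOX9-AS1 (S10 to S12), HCC1187 sh-CONTROL (S7 to S9), MDA-MB-468 sh-SOX9-AS1 (S4 to S6) and MDA-MB-468 sh-CONTROL (S1 to S3). HCC1187 was grown in RPMI-1640 and MDA-MB-468 in DMEM, so line and medium cannot be told apart. The labels do not tell separate cultures from repeat libraries of 1 culture, so p-values measure the spread between these libraries, which may be technical.

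Activins and TGF-betas are secreted dimers that bind pairs of type II and type I receptor kinases. The receptors phosphorylate SMAD2 and SMAD3, which join SMAD4 and enter the nucleus to switch genes on and off. Among the genes they induce are SMAD7, which blocks the receptors, and SKIL, which encodes the SMAD corepressor SnoN, so the pathway restrains itself. In breast epithelium the pathway is known for halting growth in normal cells and for favouring invasion in advanced tumours. MDA-MB-468 is known as a line that has lost SMAD4.

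Totals ran from 6026376 to 10160040 counts per library. The targeted RNA, SOX9-AS1, was at 1.12, 0.689 and 0.796 CPM (read counts scaled to a common library size by TMM factors) in S10 to S12, against 2.34, 1.44 and 1.76 CPM in S7 to S9, and fell 2.11-fold in HCC1187 (edgeR adjusted p = 0.0349). At these levels SOX9-AS1 had few reads per library in HCC1187. It was at 5.63, 5.06 and 5.51 CPM in the MDA-MB-468 libraries labelled sh-SOX9-AS1, against 6.04, 7.24 and 6.52 CPM in that line's controls, and did not pass there (log2 fold change -0.30 ± 0.20 SE, edgeR adjusted p = 0.417; without S4, -0.32 ± 0.23 and 0.274). The library labelled sh-SOX9-AS1 that is called S4 stood apart from its group. Over 15469 genes its correlation was 0.974 with S5 and 0.971 with S6, against 0.989, 0.990 and 0.994 with the MDA-MB-468 controls S1, S2 and S3. S5 and S6 had 0.993 between them. The authors' deposited phenotype tables name 11 of the 12 libraries, and S4 is the one they do not name. The MDA-MB-468 knockdown results of the 10 genes are therefore given with and without S4. Results without S4 rest on S5 and S6 alone. Its likeness to the controls was seen in these same counts, so those results are not independent of leaving it out. Of the basal-like markers, KRT5 and KRT6B had 0 to 0.195 CPM across the HCC1187 libraries and 67.7 CPM or more in every MDA-MB-468 library. The 7 basal-like markers summed to 252 to 281 CPM in HCC1187 controls, against 8651 to 8776 CPM in MDA-MB-468 controls, with 6 of the 7 lower in HCC1187 and 1, FOXC1, higher. The luminal markers summed to 314 to 326 CPM in HCC1187 controls, against 2742 to 3030 CPM in MDA-MB-468 controls, and all 5 tested were lower in HCC1187. The 3 leukocyte markers summed to 0 to 0.684 CPM in HCC1187 controls, against 81.3 to 140 CPM in MDA-MB-468 controls, where CD14, the only one tested, differed (log2 -7.95 ± 0.30, edgeR adjusted p = 3.96e-16) and the T cell marker CD3E had no count in any library. The 4 fibroblast markers summed to 57.9 to 68.7 CPM in HCC1187 controls, against 12.9 to 16.0 CPM in MDA-MB-468 controls, with COL3A1, COL1A1 and PDGFRB higher in HCC1187 and COL1A2 without a count in any library. The 3 endothelial markers summed to 0 to 0.488 CPM in HCC1187 controls, against 4.37 to 6.26 CPM in MDA-MB-468 controls. Over all 15592 genes tested between the controls, 43.6% were higher and 40.4% lower in HCC1187 at an edgeR adjusted p under 0.05. The part of these marker lists in the results was not tested.

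The promoters of a pair of ligand genes and both feedback genes are shown first, since these 4 genes stand for the ligand and feedback ends of the pathway. Each window starts 250 bases before the transcription start and ends 50 bases into the transcript (RefSeq, GRCh38.p14, read 5′ to 3′ on the gene's strand). Capitals mark CAGAC or its reverse complement GTCTG, the short SMAD-binding word, TATAAA on either strand, and TGACGTCA, the CREB and ATF word. INHBA lies at chr7:41703041-41703340 (minus strand), TGFB2 at chr1:218345086-218345385 (plus), SMAD7 at chr18:48950916-48951215 (minus, the most upstream of 3 starts) and SKIL at chr3:170357465-170357764 (plus).
INHBA: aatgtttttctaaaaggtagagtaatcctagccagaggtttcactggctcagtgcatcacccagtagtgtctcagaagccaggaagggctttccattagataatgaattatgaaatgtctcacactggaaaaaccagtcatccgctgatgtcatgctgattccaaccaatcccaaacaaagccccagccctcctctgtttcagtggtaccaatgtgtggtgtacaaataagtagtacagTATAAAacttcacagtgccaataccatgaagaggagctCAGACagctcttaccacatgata
TGFB2: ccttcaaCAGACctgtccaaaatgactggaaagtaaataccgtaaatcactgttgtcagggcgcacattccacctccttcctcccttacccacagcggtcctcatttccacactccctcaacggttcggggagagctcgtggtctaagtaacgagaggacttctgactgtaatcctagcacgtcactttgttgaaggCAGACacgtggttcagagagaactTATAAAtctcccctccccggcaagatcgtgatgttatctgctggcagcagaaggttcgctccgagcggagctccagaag
SMAD7: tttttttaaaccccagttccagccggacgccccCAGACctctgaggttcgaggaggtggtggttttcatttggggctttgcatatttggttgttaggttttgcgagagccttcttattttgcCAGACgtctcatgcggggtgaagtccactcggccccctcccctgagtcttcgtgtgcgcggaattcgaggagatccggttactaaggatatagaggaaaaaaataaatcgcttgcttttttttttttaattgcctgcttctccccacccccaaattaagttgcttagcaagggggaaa
SKIL: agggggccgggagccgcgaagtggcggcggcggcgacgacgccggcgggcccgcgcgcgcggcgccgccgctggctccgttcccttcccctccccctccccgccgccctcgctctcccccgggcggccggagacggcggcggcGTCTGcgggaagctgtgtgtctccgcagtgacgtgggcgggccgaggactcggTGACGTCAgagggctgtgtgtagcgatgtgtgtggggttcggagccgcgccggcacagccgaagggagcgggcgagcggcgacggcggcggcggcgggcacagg
All 10 genes had windows in the RefSeq table, 17 in total. CAGAC stood in 8 of these 17 windows, from 5 genes (INHBA, TGFB2, SMAD3, SMAD7 and SKIL), and in 45.3% of all 35116 windows. TATAAA stood in the windows of INHBA, TGFB2 and 1 other start of SMAD7, and in 11.5% of all windows. Its first base was 11 bases before the start of INHBA and 29 before that of TGFB2. TGACGTCA stood in the SKIL window alone among the 10 genes, 54 bases before the start, and in 1.85% of all windows. The GC content was 43.3% in the INHBA window, 51.7% in TGFB2, 48.3% in SMAD7 and 79.0% in SKIL, against 88.7% in the other activin subunit gene, INHBB, and a median of 58.7% over all windows. These matches describe the letters in the windows and say nothing of binding.

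The controls of the lines differed in all 10 genes, and the largest differences were among the ligands and TGFBI. HCC1187 controls had more TGFB1, FST, SMAD7 and, by a small margin, SMAD3 than MDA-MB-468 controls, and less INHBA, INHBB, TGFB2, TGFBR2, TGFBI and SKIL. A gene counted as called when the quasi-likelihood test of edgeR gave a Benjamini-Hochberg adjusted p under 0.05 over all genes tested. Of the 15592 genes tested between the controls, 43.6% were called higher and 40.4% lower in HCC1187, so 4 higher and 6 lower of 10 is near the share of all genes.

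Among the ligands, TGFB1 was higher and TGFB2 lower in HCC1187. Bulk counts do not tell fewer cells with an RNA from less RNA per cell. TGFB1 (chr19:41301587-41353911, minus strand, GENCODE v29 on GRCh38) encodes the most widely expressed isoform. It was at 33.3, 32.5 and 39.5 CPM in HCC1187 controls, against 12.1, 10.9 and 13.3 CPM in MDA-MB-468 controls, a 2.87-fold difference (log2 1.52 ± 0.13 SE, edgeR adjusted p = 3.15e-10). TGFB2 (chr1:218346235-218444619, plus) had 2.25, 3.98 and 4.36 CPM in HCC1187 controls, against 138, 135 and 112 CPM in MDA-MB-468 controls, and was 36.9-fold lower in HCC1187 (log2 -5.21 ± 0.15, edgeR adjusted p = 3.35e-18). The control groups did not overlap for either gene. TGFB1 shares exonic bases with HNRNPUL1 on the opposite strand, which had 42050 counts over the 12 libraries against 2168 for TGFB1. Whether the authors' counting used strand is not known here, so TGFB1 values are uncertain by that overlap.

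Both activin subunits were far lower in HCC1187 controls. INHBA (chr7:41667168-41705834, minus) encodes the beta A chain of activin A. It had 1.95, 2.87 and 2.70 CPM in HCC1187 controls, against 44.4, 50.7 and 38.5 CPM in MDA-MB-468 controls, 17.9-fold lower in HCC1187 (log2 -4.16 ± 0.17, edgeR adjusted p = 1.03e-15). INHBB (chr2:120346143-120351808, plus), the beta B chain, had 8.69, 7.18 and 7.16 CPM in HCC1187 controls, against 140, 149 and 153 CPM in MDA-MB-468 controls, 19.3-fold lower in HCC1187 (log2 -4.27 ± 0.11, edgeR adjusted p = 2.78e-19). Per gene length, INHBB was the more abundant subunit in both lines. It stood at 2.39 ± 0.27 CPM per kb in HCC1187 controls and 46.0 ± 2.05 in MDA-MB-468 controls, and INHBA at 0.303 ± 0.059 and 5.38 ± 0.74 CPM per kb in the same groups (SD, n = 3). FST (chr5:53480409-53487134, plus), which encodes the follistatin that traps activins, ran the other way at low levels. It had 1.66, 2.87 and 2.08 CPM in HCC1187 controls, against 0.560, 0.137 and 0.128 CPM in MDA-MB-468 controls, where the counts were 5, 1 and 1 (log2 2.84 ± 0.48, edgeR adjusted p = 1.22e-05).

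The receptor, transducer and feedback genes differed less. TGFBR2 (chr3:30606502-30694142, plus), the type II receptor of TGF-beta, had 20.8, 23.6 and 27.7 CPM in HCC1187 controls, against 61.0, 62.3 and 59.2 CPM in MDA-MB-468 controls, 2.55-fold lower in HCC1187 (log2 -1.35 ± 0.11, edgeR adjusted p = 1.16e-10). SMAD7 (chr18:48919853-48952052, minus) had 24.4, 27.6 and 29.9 CPM in HCC1187 controls, against 11.4, 10.2 and 9.46 CPM in MDA-MB-468 controls, 2.60-fold higher in HCC1187 (log2 1.38 ± 0.13, edgeR adjusted p = 3.57e-09). For both genes the control groups were well apart. SMAD3 (chr15:67063763-67195195, plus), the receptor-activated SMAD, was 1.17-fold higher in HCC1187 controls (log2 0.23 ± 0.08, edgeR adjusted p = 0.0137). SKIL (chr3:170357678-170396835, plus) was 1.34-fold lower (log2 -0.42 ± 0.12, edgeR adjusted p = 0.00411), and its control groups overlapped. Neither call held in every alternative: SMAD3 passed in 10 of 13, with adjusted p from 2.34e-05 to 0.233, the highest when all 12 libraries were fitted together. SKIL passed in 12 of 13, with adjusted p from 3.35e-05 to 0.194, the highest under library totals. Library totals moved the median log2 difference of all genes to 0.29, against 0.06 with TMM.

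TGFBI (chr5:136028895-136063818, plus), which encodes a secreted adhesion protein first found as a TGF-beta-induced gene, had the widest gap of the 10. It had 1.56, 2.32 and 1.87 CPM in HCC1187 controls, against 297, 335 and 482 CPM in MDA-MB-468 controls (log2 -7.61 ± 0.20, edgeR adjusted p = 7.31e-19). Ordered by CPM per kb in HCC1187 controls, the genes ran TGFB1, SMAD3, SMAD7, SKIL, TGFBR2, INHBB, FST, TGFB2, INHBA and TGFBI. INHBB alone was apart in range from both of its neighbours in that order. In MDA-MB-468 controls the order was TGFBI, INHBB, TGFB2, TGFBR2, SMAD3, SKIL, INHBA, TGFB1, SMAD7 and FST. There TGFBI overlapped INHBB, TGFBR2 overlapped SMAD3, and SKIL overlapped INHBA.

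**Figure D1:**
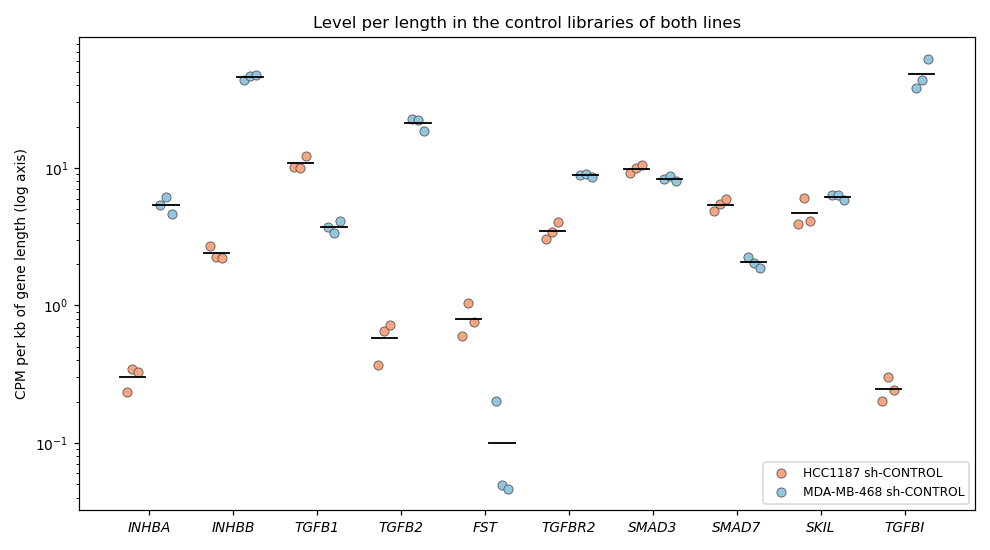
Level of the 10 genes in CPM per kb of gene length (log axis) in the sh-CONTROL libraries, HCC1187 left and MDA-MB-468 right for each gene. Points are libraries and bars are means of 3: TGFBI, TGFB2, INHBB and INHBA sat far lower in HCC1187, TGFB1, SMAD7 and FST higher, and SMAD3 and SKIL close together.

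SMAD4, the shared partner of SMAD2 and SMAD3, separated the lines further. It had 54.7, 65.4 and 63.8 CPM in HCC1187 controls, against 0.448, 0.410 and 0.511 CPM in MDA-MB-468 controls (log2 7.01 ± 0.20, edgeR adjusted p = 3.05e-18). ME2 and MEX3C, which lie on either side of SMAD4 on chromosome 18, were lower in HCC1187 controls (log2 -0.45 ± 0.09 and -0.65 ± 0.10, edgeR adjusted p = 6.78e-05 and 1.86e-06). ELAC1, the gene next to SMAD4, was scarce in both lines, at 0.883 to 1.45 CPM in HCC1187 controls and 0.128 to 0.547 CPM in MDA-MB-468 controls.

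**Figure D2:**
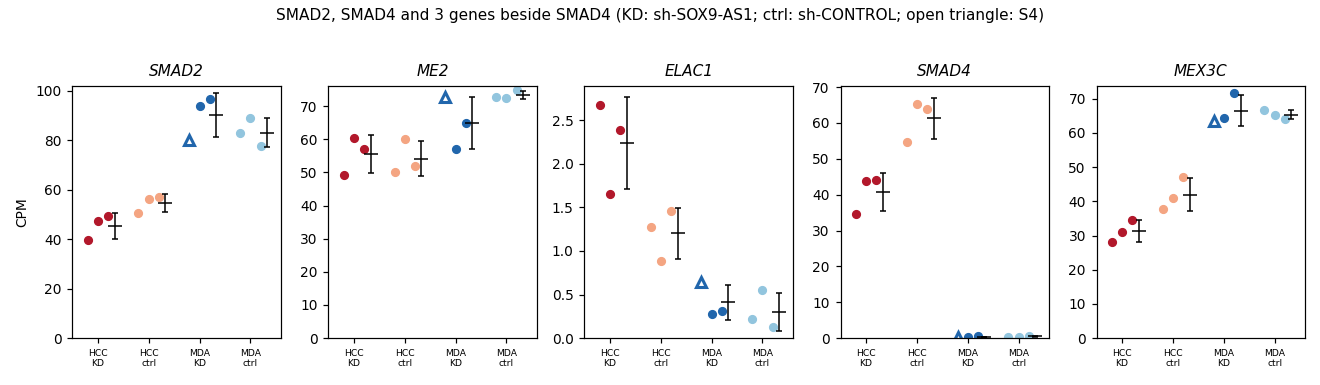
CPM of SMAD2, of SMAD4 and of ME2, ELAC1 and MEX3C beside it, in each library; groups run from HCC1187 sh-SOX9-AS1 on the left to MDA-MB-468 sh-CONTROL on the right, with mean and SD (n = 3) beside the points and S4 as an open triangle. SMAD4 is at 0.281 to 0.511 CPM in the 6 MDA-MB-468 libraries and at 34.7 to 65.4 CPM in the 6 HCC1187 libraries, while SMAD2, ME2 and MEX3C are present in all 12.

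Other pathway genes that differed between the controls included antagonists and integrins that free latent TGF-beta. Of the extracellular antagonists, 6 of the 7 tested were higher in HCC1187 controls and none lower. Over all 15592 genes tested between the controls, 43.6% were called higher and 40.4% lower. The counts of antagonists, and of targets further on, are to be read against these shares. The pathway lists were chosen with earlier results of these data known, so their counts are descriptions and not independent evidence. FSTL1, a follistatin-like glycoprotein, had 481, 508 and 517 CPM in HCC1187 controls, against 2.46, 2.05 and 2.30 CPM in MDA-MB-468 controls. NOG and CHRD, which trap BMPs, were also higher (log2 6.36 ± 0.31 and 5.52 ± 0.29, edgeR adjusted p = 2.86e-14 and 8.78e-14). ITGB6, the partner of ITGAV in an integrin that activates latent TGF-beta, had no count in HCC1187 controls, which allows up to 0.111 CPM (3 counts over the 3 libraries, counting error only), against 145, 152 and 140 CPM in MDA-MB-468 controls. ITGB8 and ITGAV were lower in HCC1187 controls too (log2 -3.96 ± 0.16 and -1.74 ± 0.09, edgeR adjusted p = 1.82e-15 and 3.25e-14). Of the known TGF-beta targets, 5 of 21 tested were higher in HCC1187 controls and 13 lower, among them THBS1, a matrix protein that can free TGF-beta from latency (log2 -6.31 ± 0.21, edgeR adjusted p = 3.39e-17).

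In HCC1187, SKIL was the 1 gene of the 10 that passed the test between sh-SOX9-AS1 and sh-CONTROL, and it was lower with sh-SOX9-AS1. SKIL, the SnoN gene, was at 16.6, 22.9 and 20.0 CPM in S10 to S12, against 30.5, 46.8 and 32.3 CPM in S7 to S9. Every knockdown library was below every control library, and S8 was the highest of the controls. SKIL fell 1.80-fold (log2 -0.85 ± 0.15 SE, edgeR adjusted p = 0.000241), a call that held in all 13 alternatives tried, with log2 changes of -0.97 to -0.63. Of the 14970 genes tested in HCC1187, 9.78% were called higher and 13.1% lower, so 1 lower and 0 higher of 10 is near the share of all genes. With TMM 1464 genes were higher and 1954 lower, and with library totals 2104 and 1545.

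The other feedback gene, SMAD7, and the ligand TGFB1 came close to the threshold in HCC1187 without passing it. SMAD7 was at 20.8, 18.5 and 24.2 CPM in the knockdown libraries, against 24.4, 27.6 and 29.9 CPM in the controls (log2 -0.33 ± 0.12, edgeR adjusted p = 0.0610). TGFB1 was at 30.1, 29.5 and 21.9 CPM in the knockdown libraries, against 33.3, 32.5 and 39.5 CPM in the controls (log2 -0.35 ± 0.13, edgeR adjusted p = 0.0507). The groups did not overlap for either gene, but the margin was small for SMAD7. TGFB1 passed in 4 of the 13 alternatives and SMAD7 in 3. TGFB2, already scarce, was at 1.40, 2.48 and 2.48 CPM in the knockdown libraries, against 2.25, 3.98 and 4.36 CPM in the controls, with counts of 10 to 42 (log2 -0.66 ± 0.29, edgeR adjusted p = 0.106). Its groups overlapped.

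Neither activin subunit passed in HCC1187. INHBA was at 0.983, 2.90 and 1.06 CPM in the knockdown libraries, against 1.95, 2.87 and 2.70 CPM in the controls (log2 -0.63 ± 0.35, edgeR adjusted p = 0.205). S11 was as high as the highest control, and without S11 INHBA passed (log2 -1.25, edgeR adjusted p = 0.0178; 0.0178 to 0.795 over the 13 alternatives). INHBB was at 5.20, 6.62 and 4.60 CPM in the knockdown libraries, against 8.69, 7.18 and 7.16 CPM in the controls, with no overlap (log2 -0.48 ± 0.19, edgeR adjusted p = 0.0701; 0.0297 without S11 and up to 0.309 over the 13 alternatives). FST, their antagonist, was at 1.26, 2.90 and 2.65 CPM in the knockdown libraries, against 1.66, 2.87 and 2.08 CPM in the controls (log2 0.12 ± 0.31, edgeR adjusted p = 0.826), and the ranges overlapped.

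TGFBR2 was the only one of the 10 besides FST with a positive fold change in HCC1187. It was at 31.9, 28.4 and 26.3 CPM in the knockdown libraries, against 20.8, 23.6 and 27.7 CPM in the controls (log2 0.29 ± 0.13, edgeR adjusted p = 0.102). It passed under library totals alone, with an adjusted p of 0.0492 (up to 0.381 over the 13 alternatives). SMAD3 was at 75.0, 82.0 and 78.9 CPM in the knockdown libraries, against 86.4, 92.7 and 98.5 CPM in the controls, without overlap (log2 -0.20 ± 0.09, edgeR adjusted p = 0.103). TGFBI was at 1.26, 2.34 and 1.86 CPM in the knockdown libraries, against 1.56, 2.32 and 1.87 CPM in the controls, with counts of 9 to 21 (log2 -0.03 ± 0.31, edgeR adjusted p = 0.960). The SMAD3 groups were apart and the TGFBI groups overlapped.

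**Figure D3:**
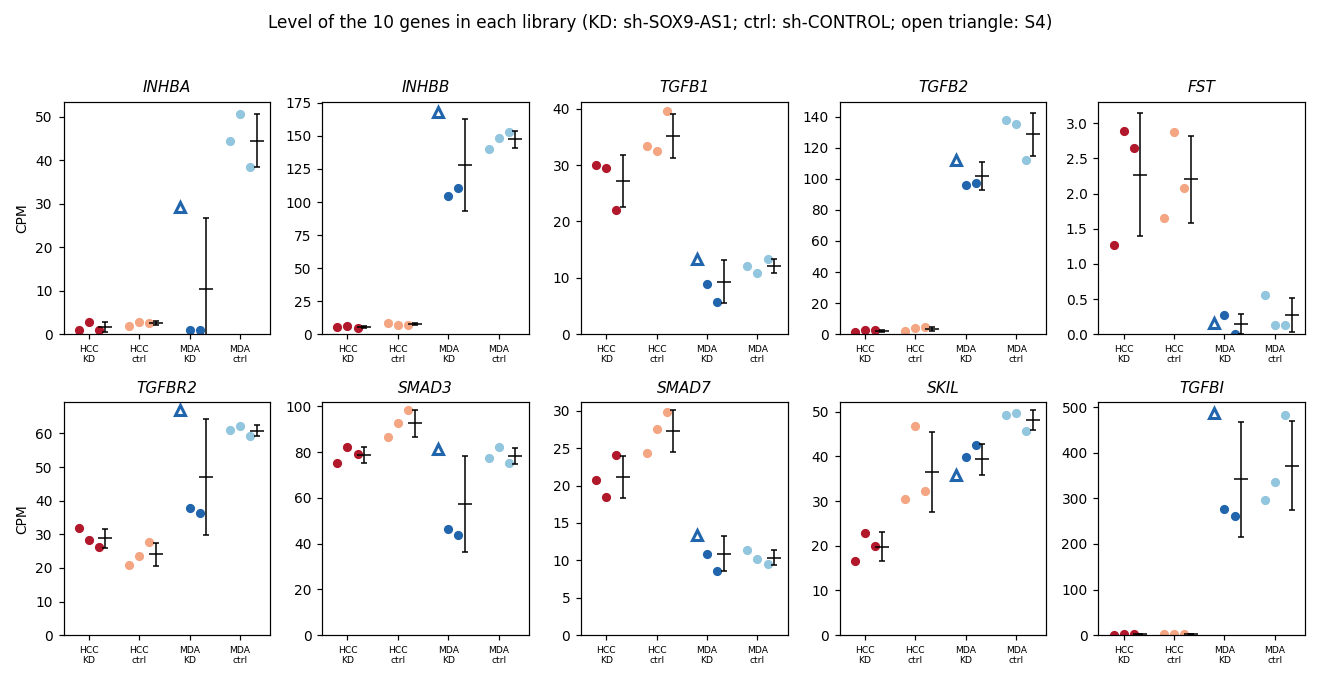
CPM of each of the 10 genes in every library, with a linear axis per gene; groups run HCC1187 sh-SOX9-AS1, HCC1187 sh-CONTROL, MDA-MB-468 sh-SOX9-AS1, MDA-MB-468 sh-CONTROL, and mean and SD (n = 3) stand beside the points. S4, the open triangle, lies with or above the MDA-MB-468 controls for INHBB, TGFBR2, SMAD3 and TGFBI, and between S5, S6 and the controls for INHBA. The HCC1187 groups are apart for SKIL, INHBB, TGFB1, SMAD3 and SMAD7, and of these SKIL alone passed the test.

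Around these genes, most of the receptors, SMADs and targets that were called in HCC1187 were lower with sh-SOX9-AS1. Over all 14970 genes tested, 9.78% were called higher and 13.1% lower. The lists were chosen with earlier results of these data known, so their counts and medians only describe the genes listed. Over all genes, lower calls outnumbered higher ones with TMM (1954 against 1464) but not with library totals (1545 against 2104). Both TGFBR1, the type I receptor that pairs with TGFBR2, and the co-receptor TGFBR3 fell, 1.85-fold and 1.62-fold (edgeR adjusted p = 3.77e-06 and 5.07e-05), and none of the other 9 receptors tested was called. TGFBR1 was at 29.8, 39.6 and 40.0 CPM in the knockdown libraries, against 65.4, 75.2 and 66.6 CPM in the controls. Of the SMADs and their regulators, 8 of 20 tested fell and 1 rose, with a median log2 change of -0.21 against 0.01 over all genes. The BMP-side SMAD5, SMAD6 and SMAD9 fell 1.48-fold, 1.60-fold and 1.44-fold (edgeR adjusted p = 0.000302, 0.000553 and 0.00452). SMAD4 fell 1.46-fold (log2 -0.55 ± 0.11, edgeR adjusted p = 0.000628), to 34.7, 43.7 and 44.1 CPM in the knockdown libraries, against 54.7, 65.4 and 63.8 CPM in the controls.

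Of the known TGF-beta targets, 7 of 20 tested fell in HCC1187 and none rose, with a median log2 change of -0.18. Over all 14970 genes tested in HCC1187, 9.78% were called higher and 13.1% lower, and the median log2 change was 0.01. The counts of each list in this paragraph are to be read against these shares. Because the lists were chosen with earlier results of these data known, they do not measure a change of the whole pathway. CCN2, which encodes connective tissue growth factor, was at 2.81, 2.34 and 3.10 CPM in the knockdown libraries, against 14.0, 12.7 and 13.9 CPM in the controls, and fell 4.73-fold (edgeR adjusted p = 1.79e-08). ID1 and ID2, inhibitors of helix-loop-helix factors that BMPs induce, fell 1.94-fold and 1.38-fold, and FN1, fibronectin, fell 1.57-fold (edgeR adjusted p = 2.87e-05, 0.00111 and 9.67e-05). Of the antagonists, FSTL1 and NOG fell 1.59-fold and 1.89-fold (edgeR adjusted p = 1.71e-05 and 0.000317), and the other 5 tested were not called. Of the other ligands and latency genes, 2 of 15 tested rose, GDF11 among them (1.42-fold, edgeR adjusted p = 0.000848), and 3 fell: BMP2 1.42-fold, ITGB8 1.94-fold and FURIN, the protease that matures these ligands, 1.23-fold (edgeR adjusted p = 0.00164, 0.00726 and 0.0199). In the same libraries FOXC1 and CDH3 fell of the 4 basal-like markers tested, and KRT8, KRT18 and FOXA1 of the 4 luminal ones. The 7 basal-like markers summed to 205 to 222 CPM in the knockdown libraries and 252 to 281 CPM in the controls, with KRT6B at 0 in both groups. The 6 luminal markers summed to 254 to 265 CPM in the knockdown libraries and 314 to 326 CPM in the controls. Their part in these changes was not tested.

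**Figure D4:**
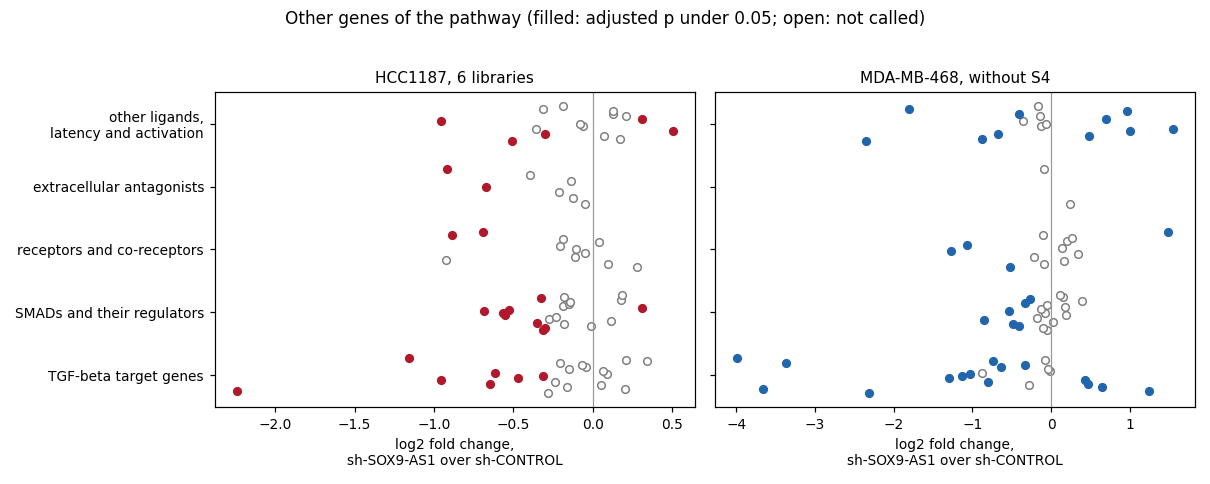
log2 fold change, sh-SOX9-AS1 over sh-CONTROL, of the other pathway genes by role, in HCC1187 (left) and in MDA-MB-468 without S4 (right, wider axis). Each point is a gene, filled when its adjusted p was under 0.05: in HCC1187 the filled targets and receptors all lie below 0, and in MDA-MB-468 without S4 the filled targets number 11 below 0 and 4 above. Over all genes tested, 9.78% were called higher and 13.1% lower in HCC1187, and 20.0% and 20.7% in MDA-MB-468 without S4. The genes were listed with earlier results of these data known.

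In MDA-MB-468, no member passed with the 6 libraries, and 7 of the 9 tested fell once S4 was left out. INHBA showed the contrast most sharply. It was at 29.3 CPM in S4, 0.983 in S5 and 0.919 in S6, against 44.4, 50.7 and 38.5 CPM in the controls. S4 lay below every control and far above S5 and S6, which held 7 and 6 counts. With the 6 libraries the log2 change was -2.14 ± 0.91 SE (edgeR adjusted p = 0.258). Without S4, INHBA fell 46.1-fold (log2 -5.53 ± 0.25, edgeR adjusted p = 5.44e-10), and S5 and S6 were as low as the lowest HCC1187 libraries. Of the 13638 genes tested with 6 libraries, 0% were called higher and 0.00733% lower, while 2554 had an unadjusted p under 0.05 in edgeR and DESeq2 called 282. Of the members, INHBA, TGFB2 and SKIL had an unadjusted p under 0.05 in edgeR (0.0452, 0.0191 and 0.0357), and neither DESeq2 nor limma-voom called any. Without S4, 20.0% of 13947 genes were called higher and 20.7% lower, against 0 and 7 of the 9 members tested.

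The other ligands fell by less without S4. INHBB was at 168, 105 and 111 CPM in the libraries S4, S5 and S6, against 140, 149 and 153 CPM in the controls (6 libraries, log2 -0.22 ± 0.17, edgeR adjusted p = 0.490), and without S4 it fell 1.37-fold (log2 -0.46 ± 0.09, edgeR adjusted p = 0.000818). S4 was above all the controls, S5 and S6 below them. TGFB2 was at 112, 95.8 and 97.3 CPM in the libraries S4, S5 and S6, against 138, 135 and 112 CPM in the controls (6 libraries, log2 -0.35 ± 0.12, edgeR adjusted p = 0.209), and without S4 it fell 1.34-fold (log2 -0.42 ± 0.10, edgeR adjusted p = 0.00401). TGFB1 was at 13.4, 8.99 and 5.67 CPM in the libraries S4, S5 and S6, against 12.1, 10.9 and 13.3 CPM in the controls (6 libraries, log2 -0.39 ± 0.28, edgeR adjusted p = 0.444), and without S4 it fell 1.65-fold (log2 -0.72 ± 0.21, edgeR adjusted p = 0.0128). That call rested on the test, since without S4 the adjusted p was 0.0538 with DESeq2 and 0.0143 with limma-voom. FST, with 0 to 5 counts per library, was not tested in this line.

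TGFBR2 and SMAD3 had the same shape as INHBB. TGFBR2 was at 66.9, 37.8 and 36.3 CPM in the libraries S4, S5 and S6, against 61.0, 62.3 and 59.2 CPM in the controls (6 libraries, log2 -0.38 ± 0.22, edgeR adjusted p = 0.349), and without S4 it fell 1.65-fold (log2 -0.72 ± 0.10, edgeR adjusted p = 6.33e-05). SMAD3 was at 81.3, 46.3 and 43.8 CPM in the libraries S4, S5 and S6, against 77.6, 82.1 and 75.1 CPM in the controls (6 libraries, log2 -0.47 ± 0.22, edgeR adjusted p = 0.283), and without S4 it fell 1.74-fold (log2 -0.80 ± 0.10, edgeR adjusted p = 1.88e-05). For both, S4 was within or above the controls and S5 and S6 were well below. TGFBI was at 486, 276 and 262 CPM in the libraries S4, S5 and S6, against 297, 335 and 482 CPM in the controls (6 libraries, log2 -0.13 ± 0.26, edgeR adjusted p = 0.791). Without S4 it fell 1.39-fold in edgeR (log2 -0.47 ± 0.15, adjusted p = 0.0188). The adjusted p without S4 was 0.235 with DESeq2 and 0.0276 with limma-voom.

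The feedback genes SMAD7 and SKIL did not pass in MDA-MB-468 either way. SMAD7 was at 13.4, 10.8 and 8.58 CPM in the libraries S4, S5 and S6, against 11.4, 10.2 and 9.46 CPM in the controls (6 libraries, log2 0.06 ± 0.20, edgeR adjusted p = 0.879; without S4, log2 -0.10 ± 0.19, 0.696), and S5 and S6 straddled the controls. SKIL was at 35.7, 39.7 and 42.6 CPM in the libraries S4, S5 and S6, against 49.3, 49.6 and 45.6 CPM in the controls (6 libraries, log2 -0.30 ± 0.12, edgeR adjusted p = 0.240; without S4, log2 -0.23 ± 0.11, 0.0955). All 3 knockdown libraries were below all 3 controls, and of the 9 genes tested SKIL alone had S4 as its lowest library.

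**Figure D5:**
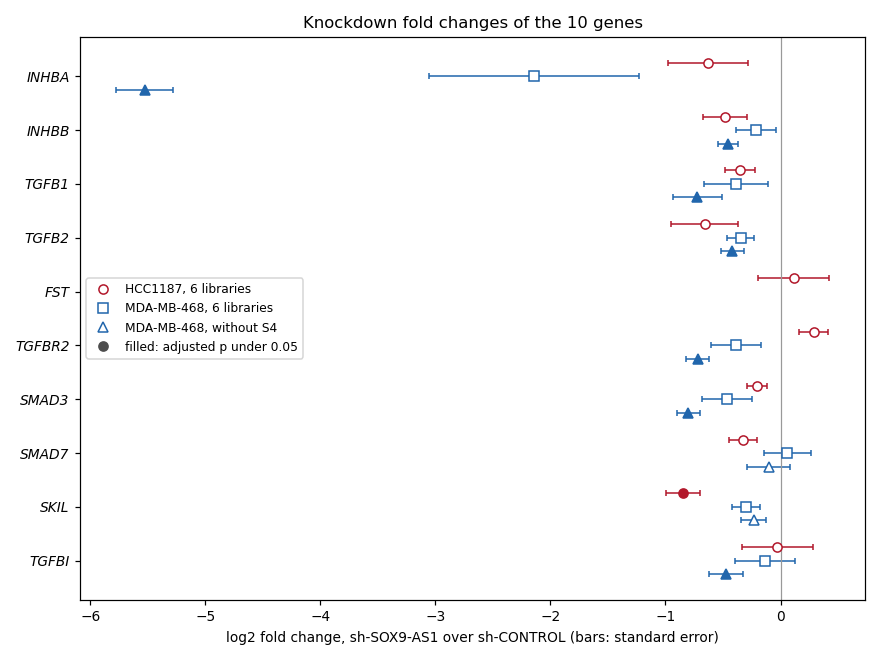
log2 fold change, sh-SOX9-AS1 over sh-CONTROL, of the 10 genes, with bars for the standard error; circles are HCC1187, squares MDA-MB-468 with 6 libraries, triangles MDA-MB-468 without S4, and filled marks have an adjusted p under 0.05. SKIL is filled in HCC1187 (-0.85), no square is filled, and 7 triangles are, from -0.42 for TGFB2 to -5.53 for INHBA. FST is shown for HCC1187 only. Over all genes tested in HCC1187, 9.78% were called higher and 13.1% lower. In MDA-MB-468 these shares were 0% and 0.00733% with 6 libraries, and 20.0% and 20.7% without S4.

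Of the other pathway genes in MDA-MB-468, none was called with 6 libraries. Without S4, 11 of 20 tested TGF-beta targets fell and 4 rose, with a median log2 change of -0.69 against -0.00142 over all genes; over all 13947 genes tested without S4, 20.0% were called higher and 20.7% lower. THBS1 was at 142, 15.03 and 15.8 CPM in the libraries S4, S5 and S6, against 309, 256 and 166 CPM in the controls, and CCN2 at 16.6, 2.25 and 2.30 CPM in S4 to S6, against 39.6, 26.8 and 19.2 CPM in the controls. As with INHBA, S4 was below every control for both genes and far above S5 and S6. Without S4 they fell 15.9-fold and 12.6-fold (edgeR adjusted p = 4.24e-09 and 9.18e-07), ANGPTL4 fell 4.95-fold, and BHLHE40 rose 2.36-fold (edgeR adjusted p = 1.86e-07 and 1.21e-06). With 6 libraries the log2 changes were -2.10 ± 0.77 for THBS1, -2.06 ± 0.65 for CCN2, -0.66 ± 0.67 for ANGPTL4 and 1.00 ± 0.24 for BHLHE40. Of 18 SMADs and regulators tested 6 fell, SKI, the relative of SKIL, 1.80-fold, and of 12 receptors 3 fell and 1 rose (BAMBI fell 2.41-fold, TGFBR3 rose 2.80-fold; edgeR adjusted p = 2.92e-05, 1.93e-06 and 0.00117). Of 15 other ligands and latency genes 5 rose and 5 fell, among them INHA, the inhibin alpha chain that diverts the activin beta chains, which rose 2.94-fold (edgeR adjusted p = 0.000424). With 6 libraries SKI was at a log2 change of -0.53 ± 0.21, BAMBI at -0.84 ± 0.27, TGFBR3 at 1.22 ± 0.40 and INHA at 1.22 ± 0.41. The shares of receptors and of other ligands called are to be read against the 20.0% and 20.7% over all genes. As the lists were chosen with earlier results of these data known, their counts and medians are descriptions and not independent evidence. In the same libraries 5 of the 7 basal-like markers fell and 1 rose, KRT17 falling 5.52-fold (edgeR adjusted p = 2.65e-10; log2 change -1.11 ± 0.61 and not called with 6 libraries). Their summed level was 9030 CPM in S4 and 6522 to 6635 CPM in S5 and S6, against 8651 to 8776 CPM in the controls, none of them at 0. Of 5 luminal markers tested without S4, GATA3 and KRT18 fell, and the list summed to 2513 to 2849 CPM in S5 and S6 and 3262 CPM in S4, against 2742 to 3030 CPM in the controls. The fibroblast marker COL1A1, the only one tested, rose without S4 (log2 change 0.47 ± 0.17, edgeR adjusted p = 0.0368), and that list summed to 16.1 to 21.2 CPM in S5 and S6 and 14.8 CPM in S4, against 12.9 to 16.0 CPM in the controls. The part of these markers in the results was not tested.

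The knockdown effects of the lines were compared with each other as the HCC1187 effect minus the MDA-MB-468 effect over all 12 libraries. With S4, 0 of the 10 genes passed, against 1.24% of 16328 genes called higher and 2.52% lower. TGFBR2 and SKIL had an unadjusted p under 0.05 in edgeR (0.0207 and 0.0289), as did 3367 of the 16328 genes tested. Neither DESeq2 nor limma-voom called any of the 10. With TMM 202 genes were higher and 411 lower, and with library totals 253 and 286. Without S4, 4 of the 10 passed, against 12.4% of 16807 genes called higher and 13.2% lower. INHBA (4.90 ± 0.53), TGFBR2 (1.01 ± 0.17) and SMAD3 (0.60 ± 0.13) had a higher log2 effect in HCC1187 than in MDA-MB-468, and SKIL a lower one (-0.61 ± 0.20), with edgeR adjusted p = 1.34e-07, 7.17e-05, 0.00120 and 0.0248. For INHBA and SMAD3 this was a smaller fall in HCC1187 (log2 -0.63 and -0.20, not called) than in MDA-MB-468 without S4 (-5.53 and -0.80). INHBA was already at 1.95 to 2.87 CPM in HCC1187 controls, where a large fall is hard to measure. TGFBR2 is the 1 gene of these 4 whose fold changes had opposite signs in the lines, 0.29 in HCC1187 and -0.72 in MDA-MB-468 without S4, and the HCC1187 value did not pass.

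Among the other pathway genes, TGFBR3, TGFBR1, BHLHE40 and CHRD passed the difference between the lines with S4 kept. TGFBR3 was at 26.0, 29.9 and 28.7 CPM in HCC1187 knockdown libraries, against 42.5, 48.1 and 49.2 CPM in HCC1187 controls. It was at 3.38, 7.86 and 6.13 CPM in the libraries S4, S5 and S6, against 3.13, 2.87 and 1.41 CPM in MDA-MB-468 controls. TGFBR1 was at 66.3, 67.0 and 74.9 CPM in the libraries S4, S5 and S6, against 83.6, 81.4 and 62.7 CPM in MDA-MB-468 controls, with overlap, whereas in HCC1187 its groups were well apart. The differences in log2 effect were -1.90 ± 0.35 for TGFBR3, -0.74 ± 0.19 for TGFBR1, -1.28 ± 0.29 for BHLHE40 and -1.76 ± 0.45 for CHRD (edgeR adjusted p = 0.0112, 0.0417, 0.0287 and 0.0454). Without S4 they were -2.18 ± 0.28, -0.78 ± 0.17, -1.52 ± 0.17 and -1.89 ± 0.54 in the same order (edgeR adjusted p = 2.14e-06, 0.00107, 2.76e-07 and 0.0109). CHRD was at 0.137 to 1.38 CPM in MDA-MB-468.

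The patterns most like that of INHBA were sought by Pearson correlation of log2(CPM + 0.5), centred on each line, over 12 libraries and 14878 genes. They were those of HEG1 (r = 0.987), MCM10, a replication factor (0.981), E2F7, a cell cycle repressor (0.981), SPRY2, a feedback inhibitor of receptor tyrosine kinases (0.980), and RAP2B, a small GTPase (0.979). HEG1 was at 43.3 CPM in S4 and a mean of 14.8 CPM in S5 and S6, against a mean of 44.3 CPM in MDA-MB-468 controls. Within the 6 HCC1187 libraries the correlations of these 5 genes with INHBA were 0.759 to 0.908, and within MDA-MB-468 0.990 to 0.992. These are descriptions over 12 libraries that share lines and treatments, and they carry no p.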

How the data were processed

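RNA was measured by paired sequencing of stranded TruSeq mRNA libraries with 76 bp reads, per the labels' protocols. The authors deposited whole-number read counts per gene, 60675 genes in a table for each line, with symbols and gene lengths. Per the submitters' processing notes, featureCounts 2.0.0, HISAT2 2.1.0, Trimmomatic 0.39, SAMtools, MultiQC 1.11 and FastQC 0.11.9 were used with GRCh38. The sources used here give neither the annotation release nor the strand setting.

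The count columns carry lane labels and no replicate number, so a column names its group and not its sample. Lane 1 of each library was used, and 24 of 36 count columns were not used. Libraries are called S1 to S12 by the number in the column names. BLANCO, a word in the names of the sh-SOX9-AS1 columns, is unexplained.

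Each comparison was fitted on all genes in R 4.3.3 by edgeR 4.0.16 (quasi-likelihood F test, TMM scaling, filterByExpr at a count of 10 and a total of 15), with Benjamini-Hochberg adjustment and a threshold of 0.05. Standard errors are the log2 fold change over the root of F. CPM values use TMM factors over all 12 libraries, and CPM per kb the deposited gene length. Alternatives were DESeq2 1.42.0, limma 3.58.1 voom, other scalings and filters, a joint fit and leaving out each library; the scripts were tested on simulated data. The upper limit given for a gene without a count covers counting error only, while the standard errors include the spread between libraries.

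The 10 genes, the pathway lists and the markers were chosen with earlier results of these data known. Up to 4 genes of each list were named per comparison, those of smallest p among the called, and SMAD4, SOX9-AS1 and SOX9 were always to be named. SOX9, the protein-coding neighbour of SOX9-AS1, fell 1.41-fold in HCC1187 (edgeR adjusted p = 0.0256), and had a log2 change of -0.68 ± 0.14 in MDA-MB-468 (edgeR adjusted p = 0.205; without S4, -0.82 ± 0.10 and 2.03e-05). For INHBA the 5 most alike patterns were named, among genes with a mean CPM of at least 2 in 1 line.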

Additional observations from a re-analysis of the deposited data

Results flagged for a closer look

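The knockdown effect differed between the lines in 4 of the 10 genes by the test of the difference itself, once S4 was left out. Over the 16807 genes tested in that way, 12.4% were called higher and 13.2% lower. Without S4, only S5 and S6 remain as sh-SOX9-AS1 libraries of MDA-MB-468. The likeness of S4 to the controls was seen in these same counts, so the calls are not independent of leaving it out. SOX9-AS1 itself did not pass in MDA-MB-468 with or without S4. The HCC1187 log2 effect minus the MDA-MB-468 effect was 4.90 for INHBA, 1.01 for TGFBR2, 0.60 for SMAD3 and -0.61 for SKIL (edgeR adjusted p = 1.34e-07, 7.17e-05, 0.00120 and 0.0248). With S4 the differences were 1.53 ± 1.33, 0.69 ± 0.27, 0.28 ± 0.23 and -0.54 ± 0.22 (SE), and none passed (edgeR adjusted p = 0.549, 0.158, 0.537 and 0.184). INHBA and SMAD3 had negative log2 changes in both lines, smaller in HCC1187, where INHBA was already low in the controls. For SKIL, S4 was at 35.7 CPM, below S5 and S6 (39.7 and 42.6 CPM) and below the controls; for the other 3 it was nearer to the controls. Why S4 stands apart was not tested.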

How the results depend on the processing

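In HCC1187, SKIL passed in all 13 alternatives. The count of members called was 1, against 2 with library totals (TGFBR2 added), 3 with no filter on low counts, 2 with limma-voom, and 1 to 4 when a library was left out (4 without S11). Over all genes the calls were 3418 of 14970 in the main analysis, 3649 of 14970 with library totals and 3396 of 29255 with no filter. They were 3426 of 14970 with limma-voom and 3410 of 15300 without S11. In MDA-MB-468 the count was 0, against 2 with no filter (INHBA and SMAD3), 0 to 7 when a library was left out (7 without S4, 0 without any other) and, chosen after seeing the data, 5 with DESeq2 and 7 with limma-voom without S4. The calls over all genes there were 1 of 13638 in the main analysis, 1441 of 26996 with no filter and 5676 of 13947 without S4. Without S4 DESeq2 called 4091 of 14665 genes and limma-voom 5609 of 13947. In the difference between the lines the count of members was 0, against 1 with no filter (INHBA) and 0 to 4 when a library was left out (4 without S4). All-gene calls in the difference were 613 of 16328 in the main analysis, 1415 of 32821 with no filter and 4300 of 16807 without S4. Between the controls 9 or 10 members were called in every alternative, SMAD3 and SKIL being the exceptions. Of all genes, 13108 of 15592 were called between the controls in the main analysis.

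Log2 values not called in the main analysis changed sign in places. In HCC1187 leaving out a library gave -0.063 to 0.34 for FST and -0.22 to 0.12 for TGFBI, and library totals gave 0.027 for TGFBI. In MDA-MB-468 leaving out a library gave -0.47 (without S4, where it was called) to 0.093 for TGFBI and -0.10 to 0.20 for SMAD7; without S4 SMAD7 was at -0.10 with both DESeq2 and limma-voom. In the difference, leaving out a library gave -0.051 to 1.82 for FST, -0.19 to 0.37 for TGFB1 and -0.12 to 0.45 for TGFBI. The cause of these changes was not tested.

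Over all genes, 3418 were called in HCC1187, against 1499 with all 12 libraries fitted together and 2213 without S8. In MDA-MB-468 1 was called, against 282 with DESeq2, 0 with limma-voom, 1441 with no filter, 887 in the joint fit and 5676 without S4. In the difference 613 were called, against 1122 with DESeq2, 1415 with no filter, 4300 without S4 and 129 to 358 without any other library. No paired analysis was possible because the columns carry no replicate number. Lane 1 alone, planned as an alternative to the sum of lanes, is the main analysis here and was not run again. FST was tested in MDA-MB-468 only with no filter and in the joint fit.

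Depth limits FST in MDA-MB-468 (0 to 5 counts), INHBA in S5 and S6 (7 and 6 counts), and INHBA, TGFB2, TGFBI and FST in HCC1187 (7 to 42 counts), where standard errors ran from 0.29 to 0.35 on the log2 scale. It also limits SOX9-AS1 in HCC1187, which had few reads per library.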
